A study of Mus musculus with 8 samples.

Results

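W20 was set against EGFP in mouse cells 72 h into reprogramming, on 4 of the 8 arrays of the series: 2 arrays labelled N31+W20_72hr and 2 labelled N31+EGFP_72hr, chosen by their titles and by no measured value. N31 is a neural progenitor cell (NPC) derived from mouse embryonic stem cells, W20 is by the series title a bacterial protein linked to faster reprogramming, and EGFP, a green fluorescent protein, is the control. Both groups received doxycycline (Dox, 40 ng/ml), first for 48 h while in NPC medium with EGF and bFGF, each at 10 ng/ml, and then for 24 h in GMEM with 10% KSR (a serum replacement), LIF at 1000 U/ml and Dox at 40 ng/ml. The other 4 arrays hold the same 2 kinds of cells kept as NPC in NPC medium. They serve here to ask which effects of W20 differed between the stages. They also entered the choice of genes and probes and the shared estimate of spread behind the p-values at 72 h. The labels do not say what Dox switches on or whether N31 is 1 clone. Nor do they call the 2 samples of a group independent cultures, and every p-value given here therefore rests on the spread of these samples alone, which may be technical. All 4 arrays at 72 h lay on 1 slide, EGFP on positions 1 and 2 and W20 on positions 3 and 4, so that slide position and group cannot be told apart.

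Reprogramming turns a differentiated cell towards a pluripotent one, and it asks much of the cell: it has to grow and divide quickly, lean on glycolysis, give up its mesenchymal and lineage programmes and tolerate stress. One stress route runs through ATF4, a transcription factor whose protein is made when translation initiation is slowed by phosphorylation of eIF2. ATF4, with C/EBP partners, switches on amino acid transport, amino acid synthesis, aminoacyl-tRNA synthetases and a set of feedback genes. The unfolded protein response shares the ATF4 branch when proteins misfold in the endoplasmic reticulum (ER), and has other branches, through ATF6 and XBP1, that switch on the folding chaperones of the ER. Serum response factor (SRF) with its actin-sensing partners drives genes of the contractile cytoskeleton, and YAP with TEAD drives a related set of targets in spread, tense cells.

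RNA was read on 1-colour Agilent whole mouse genome arrays. Values below are normalised signals, the processed spot intensity scaled so that every array has the same 75th percentile (871 intensity units), and they compare arrays for 1 gene but not genes with each other. Before scaling, that percentile was 938.0 and 900.9 on the EGFP arrays and 826.7 and 826.5 on the W20 arrays, and 61.5% and 62.4% against 59.0% and 57.0% of spots were well above background; their part in the results was not tested. Differences are W20 minus EGFP on the log2 scale ± standard error, with n = 2 arrays a group, from limma with Benjamini-Hochberg adjusted p over 13618 genes. Of these genes, 3875 (28.5%) passed the threshold of 0.05 as higher in W20 cells and 3313 (24.3%) as lower. Most of these differences were small, with a median size of 0.30. At least 2-fold by fitted value, 124 genes (0.911%) were higher and 330 (2.42%) were lower. Of the 330, 102 were well above background on at least 1 EGFP array but on neither W20 array. Of the 124, 22 were so on at least 1 W20 array but on neither EGFP array. Genes well above background on no array at 72 h, such as Gfap, are in neither of these 2 counts. The fitted values of all such dim genes are not measured folds. The W20 and EGFP arrays did not overlap for 43.4% of genes with W20 above and for 34.8% with W20 below, so lack of overlap alone marks no gene. A gene said to be higher, to fall or to differ by a number did so on the log2 scale. Precision is limited by the number of arrays. The split of calls depended on the scaling: when arrays were scaled on the spike-in control spots instead, 1671 genes were higher and 2440 lower, 40.6% of the calls higher against 53.9%.

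**Figure D1:**
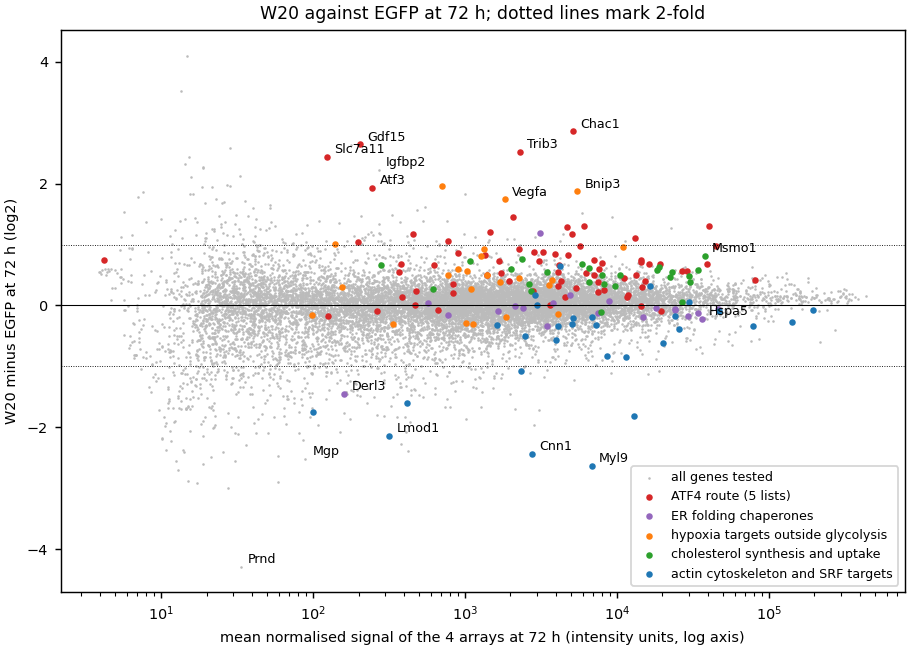
Difference between W20 and EGFP cells at 72 h (log2, y axis) against the mean normalised signal of the 4 arrays (log axis) for 13618 genes, each a grey point, with genes of 5 groups coloured. Most genes of the ATF4 route lie above 0 and the actin and SRF genes mostly below it. By fitted value, the 330 genes at least 2-fold lower outnumber the 124 at least 2-fold higher.

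The neural progenitor label was checked against marker genes. The progenitor markers Nes (the filament nestin), Vim (vimentin), Pax6, Sox2, Fabp7, Msi1, Egfr and Slc1a3 were well above background on all 4 arrays, while Sox1 was so only in EGFP cells. Olig1, Olig2 and Mog of oligodendrocytes, Gfap, Aqp4 and Slc1a2 of astrocytes and Snap25 of neurons were well above background on no array of either group. Of the 5 endothelial markers only Kdr, and of the 5 of microglia and blood only Hbb-bt, was well above background on both arrays of a group. Of the 6 fibroblast and mural markers, 5 were measured in both groups and all 5 were lower with W20: Col1a1, Col1a2, Pdgfrb, Acta2 and Dcn. The calls of Acta2 (with median or spike-in scaling) and of Col1a1 (without EGFP replicate 2 or W20 replicate 1) did not hold throughout. Their summed signal with Rgs5, most of it from Col1a2, was 133222 and 135721 on the EGFP arrays and 95720 and 97485 on the W20 arrays. Of the 4 epithelial markers the keratins Krt8 and Krt18 were lower, and Cdh1, the junction protein E-cadherin, was higher, with 71.0 and 69.6 on the EGFP and 84.5 and 83.9 on the W20 arrays. The Cdh1 call was lost with each left-out array and with spike-in scaling (adjusted p = 0.0505 to 0.119). Epcam gave 55.6 and 65.5 on the EGFP and 53.5 and 67.8 on the W20 arrays and did not pass. The sum of the 4 markers, nearly all from the keratins, was 83044 and 81103 against 55823 and 56348. In a bulk sample, fewer cells of a type and less RNA per cell cannot be told apart. The part of such cells in the lower mesenchymal and matrix genes described further on was not tested.

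Promoter sequences were read for the stress genes. RefSeq promoters (GRCm38.p6, 250 bases before to 50 after each start) were held for 10859 of the genes tested. The C/EBP-ATF element, searched as TGATGNAA on both strands, was found in 304 of them (2.8%) and in 16 of the 56 promoters (28.6%) of the ATF4-linked genes below. The ER stress element of chaperone genes, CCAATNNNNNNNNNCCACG on both strands, was found in 21 promoters (0.193%), among them 10 of the 20 of the ER chaperone list, and in none of those 56. A match is a description of letters and no proof of a site. Windows around matches are printed 5′ to 3′ on the gene's strand, with the element in capitals, for 5 ATF4-linked genes of different roles (both matches for Slc7a11), for Herpud1, which is on the chaperone list, and for 2 chaperones. They lie at chr2:119351019-119351086 (Chac1, plus strand), chr3:50443623-50443690 (Slc7a11, minus strand), chr6:7693210-7693262 (Asns, minus strand), chr7:126625543-126625610 (Nupr1, minus strand), chr8:111033700-111033767 (Aars, plus strand), chr8:94386287-94386354 (Herpud1, plus strand), chr2:34771995-34772073 (Hspa5, plus strand) and chr8:84847045-84847123 (Calr, minus strand).
Chac1: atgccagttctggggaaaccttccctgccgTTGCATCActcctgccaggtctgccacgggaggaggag
Slc7a11: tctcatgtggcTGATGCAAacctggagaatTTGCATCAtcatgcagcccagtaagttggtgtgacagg
Asns: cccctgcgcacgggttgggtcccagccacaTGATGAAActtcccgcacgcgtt
Nupr1: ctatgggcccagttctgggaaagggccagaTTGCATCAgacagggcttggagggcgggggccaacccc
Aars: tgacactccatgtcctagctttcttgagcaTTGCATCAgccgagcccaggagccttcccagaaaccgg
Herpud1: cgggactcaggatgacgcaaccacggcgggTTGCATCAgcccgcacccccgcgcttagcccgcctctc
Hspa5: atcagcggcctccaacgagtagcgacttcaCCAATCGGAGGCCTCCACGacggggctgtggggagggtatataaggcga
Calr: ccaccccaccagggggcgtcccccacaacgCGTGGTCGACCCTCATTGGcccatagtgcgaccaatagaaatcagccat
In W20 cells at 72 h all of the first 6 genes were higher, and Hspa5 and Calr were lower: the differences were 2.86, 2.44, 1.31, 1.10, 0.68 and 1.18 against -0.22 for Hspa5 and -0.19 for Calr. The Calr call ended with spike-in scaling and without EGFP replicate 2 (adjusted p = 0.0534 to 0.0556). These genes were picked for print with their values known. Of the 16 ATF4-linked genes with the element 15 were higher, with a median difference of 0.78, while among all 304 genes with it 33.6% were higher and 27.6% lower, close to the 28.7% and 24.3% of all genes with a promoter. The 5 lists of ATF4-linked genes were mostly higher as wholes, whether or not a member held the element. They had 8 of 8, 12 of 13, 17 of 18, 10 of 15 and 19 of 20 tested members higher. Of the 10 chaperone genes with the ER stress element, 1 was higher and 6 were lower.

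All 8 transcription factors of the ATF4 route were higher in W20 cells at 72 h, and 4 of them at least 2-fold (median 0.81, against 0.03 over all genes). Atf4 itself, the head of the route, gave 3965 and 3809 on the EGFP and 9433 and 9721 on the W20 arrays, 2.46-fold higher (log2 difference 1.30 ± 0.080, adjusted p = 0.000153). Atf3, an ATF4 target that acts as a repressor, gave 129 and 124 on the EGFP and 472 and 489 on the W20 arrays (3.81-fold, log2 difference 1.93 ± 0.089, adjusted p = 7.34e-05). Ddit3, which codes for the stress factor CHOP, went from 536 and 534 to 1132 and 1107 (log2 difference 1.06 ± 0.064, adjusted p = 0.00015), and Nupr1, a small stress-induced chromatin protein, from 9125 and 8781 to 18446 and 20050 (log2 difference 1.10 ± 0.069, adjusted p = 0.000161). In each of these genes both W20 arrays lay above both EGFP arrays. The dimer partners and relatives changed less: Jdp2 by 0.55, Atf5 by 0.45, Cebpg by 0.35 and Cebpb by 0.24, and the Cebpb call ended with spike-in scaling (adjusted p = 0.153).

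Of 13 feedback and effector genes downstream of ATF4, 12 were higher and none lower (median 0.83). Chac1, which degrades glutathione, had the highest fold of all genes measured well in both groups, with 2044 and 1769 on the EGFP and 14062 and 13550 on the W20 arrays (7.26-fold, log2 difference 2.86 ± 0.097, adjusted p = 3.81e-05). Gdf15, a secreted stress hormone, gave 81.1 and 81.5 on the EGFP and 474 and 546 on the W20 arrays (6.25-fold, log2 difference 2.65 ± 0.076, adjusted p = 2.88e-05), and Trib3, a pseudokinase that binds ATF4 and restrains it, 985 and 941 on the EGFP and 5434 and 5628 on the W20 arrays (5.74-fold, log2 difference 2.52 ± 0.073, adjusted p = 2.88e-05). The signal in W20 cells was thus several times that in EGFP cells for all 3, with replicates close together. Brakes on growth signalling were higher as well: Ddit4, an inhibitor of the kinase mTORC1, by 0.98, and Sesn2, which senses leucine for the same kinase, by 0.74. Stc2, a secreted glycoprotein, was higher by 1.17 and Vldlr, a lipoprotein receptor, by 0.83. Bbc3, which codes for the death-promoting protein PUMA, gave 3612 and 3646 on the EGFP and 3724 and 3571 on the W20 arrays and did not pass (log2 difference 0.01 ± 0.033, adjusted p = 0.872). Adm2 passed, but its probe was well above background on no array at 72 h.

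The enzymes of amino acid synthesis and one-carbon metabolism had 17 of 18 members higher and none lower (median 0.69). Asns, asparagine synthetase, gave 23520 and 28131 on the EGFP and 64604 and 62770 on the W20 arrays (2.48-fold, log2 difference 1.31 ± 0.093, adjusted p = 0.000239), and Gpt2, the mitochondrial alanine transaminase, 1246 and 1253 on the EGFP and 3315 and 3492 on the W20 arrays (2.72-fold, log2 difference 1.45 ± 0.062, adjusted p = 5.94e-05). In the serine and folate route, Psph, which makes the last step to serine, was higher by 1.17, the mitochondrial folate enzymes Mthfd2 and Aldh1l2 by 1.30 and 1.04, and Aldh18a1, at the start of proline synthesis, by 0.88. Pck2, a mitochondrial enzyme that also answers to ATF4, differed by 0.13 and did not pass (adjusted p = 0.0832).

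Of 15 amino acid transporters, 10 were higher and 1 lower (median 0.57). Slc7a11, which imports cystine in exchange for glutamate and so feeds glutathione synthesis, gave 53.6 and 53.5 on the EGFP and 278 and 304 on the W20 arrays (5.43-fold, log2 difference 2.44 ± 0.050, adjusted p = 2.14e-05). Slc7a5, the light chain of the leucine transporter, went from 955 and 969 to 2193 and 2235 (log2 difference 1.20 ± 0.055, adjusted p = 7.15e-05). Transporters of small neutral amino acids, Slc1a4 and Slc1a5, were higher by 0.92 and 0.87, and the arginine importer Slc7a1 by 0.84. Slc1a1, a glutamate transporter, was the single lower member (-0.17), and its call ended under 9 of 13 alternatives, among them 3 of the 4 left-out arrays (all but EGFP replicate 2; adjusted p = 0.0537 to 0.572). Of 20 cytosolic aminoacyl-tRNA synthetases, which load amino acids onto their tRNAs, 19 were higher and none lower, none by as much as 2-fold (median 0.50). Among the larger differences were those of Cars (cysteine, 0.97), Yars (tyrosine, 0.74), Gars (glycine, 0.73), Tars (threonine, 0.71) and Mars1 (methionine, 0.69). Qars (glutamine) differed by -0.08 and did not pass (adjusted p = 0.196).

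**Figure D2:**
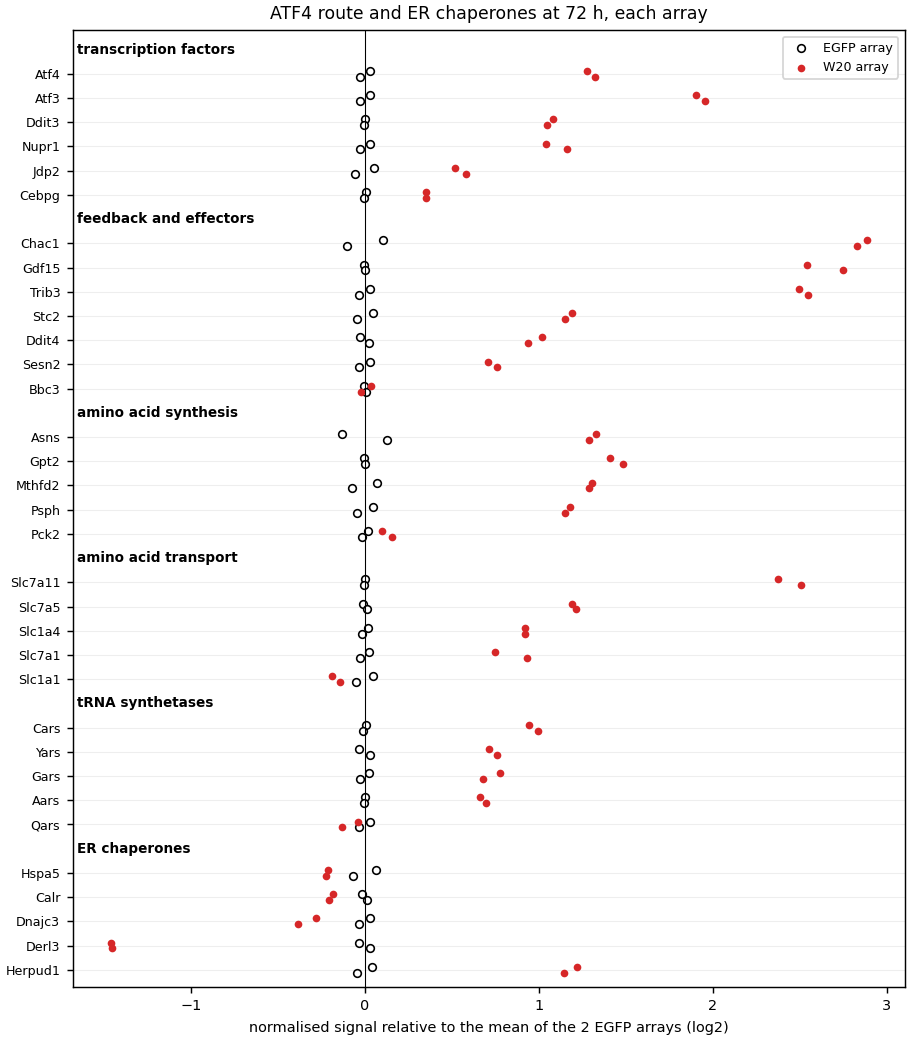
Normalised signal of each array at 72 h relative to the mean of the 2 EGFP arrays (log2, x axis) for genes of the ATF4 route by role and for ER chaperones, with 2 open points for EGFP and 2 filled points for W20 arrays a gene. The W20 points of Chac1, Trib3, Gdf15 and Slc7a11 lie more than 2 log2 units to the right, while those of Hspa5 and Calr lie slightly left of 0.

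The folding chaperones of the ER had members in both directions. Of 22 members 4 were higher and 7 lower (median -0.06). Hspa5, the main chaperone BiP, gave 41006 and 37327 on the EGFP and 33818 and 33505 on the W20 arrays (log2 difference -0.22 ± 0.052, adjusted p = 0.0165), a small drop whose call ended without EGFP replicate 1, without either W20 array, with the 72 h arrays alone and with median or spike-in scaling (adjusted p = 0.05003 to 0.0732). Derl3, which helps to move misfolded proteins out of the ER, was the exception in size, with 260.5 and 272 on the EGFP and 96.8 and 97.3 on the W20 arrays (2.74-fold lower, log2 difference -1.46 ± 0.13, adjusted p = 0.000504). Dnajc3, an inhibitor of the eIF2 kinases, fell by 0.33. The members that were higher included Herpud1, a protein of ER-associated degradation whose promoter holds the C/EBP-ATF element printed above, with 2150 and 2023 on the EGFP and 4860 and 4622 on the W20 arrays (log2 difference 1.18 ± 0.058, adjusted p = 8.63e-05), and Ero1a, an ER oxidase that also answers to hypoxia, at 0.56. The count of lower chaperones was 3 to 4 when 1 array at 72 h was left out, 3 or 2 with median or spike-in scaling and 10 with quantile scaling, and that of higher ones was 2 without EGFP replicate 2 and with spike-in scaling. The median ran from -0.13 to -0.04 over the alternatives. Of 17 heat shock proteins of the cytosol and mitochondria, 10 were higher and none lower (median 0.16; 0.05 with quantile scaling; 6 higher with spike-in scaling): the small heat shock protein Hspb8 and the exchange factor Hsph1 by 0.52 and 0.49 and the mitochondrial chaperones Hspd1 and Hspa9 by 0.44 and 0.43.

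Sugar breakdown and hypoxia-linked genes were higher together. Of 20 glycolytic enzymes and transporters 18 were higher and 1 lower (median 0.45). Slc16a3, which exports lactate, gave 5635 and 5633 on the EGFP and 15357 and 15325 on the W20 arrays (2.72-fold, log2 difference 1.45 ± 0.032, adjusted p = 2.14e-05), Hk2, the hexokinase that traps glucose, 1288 and 1334 on the EGFP and 2792 and 2767 on the W20 arrays (log2 difference 1.08 ± 0.032, adjusted p = 2.94e-05), and Pfkp, a subunit of the committing kinase of glycolysis, 1605 and 1663 on the EGFP and 3277 and 3203 on the W20 arrays (log2 difference 0.99 ± 0.032, adjusted p = 3.81e-05). The glucose transporters Slc2a1 and Slc2a3 were higher by 0.56 and 0.61. Isoforms moved apart: the neuronal enolase Eno2 fell by 0.56 while Eno1 was higher by 0.35, and the muscle kinase Pfkm did not pass (0.01, adjusted p = 0.802). Of 23 hypoxia targets outside glycolysis 17 were higher and 5 lower (median 0.45). Bnip3, a receptor that sends mitochondria to autophagy, gave 2856 and 2880 on the EGFP and 10845 and 10237 on the W20 arrays (3.67-fold, log2 difference 1.88 ± 0.039, adjusted p = 2.14e-05). Ankrd37, a hypoxia-induced ankyrin protein, gave 342 and 379 on the EGFP and 1483 and 1339 on the W20 arrays (3.91-fold, log2 difference 1.97 ± 0.070, adjusted p = 4.04e-05), and Vegfa, the vascular growth factor, 988 and 1017 on the EGFP and 3221 and 3485 on the W20 arrays (3.34-fold, log2 difference 1.74 ± 0.050, adjusted p = 2.88e-05). Higd1a, a mitochondrial protein of low-oxygen survival, was higher by 0.95, the clock repressor Bhlhe40 by 0.93 and the membrane carbonic anhydrase Car12 by 1.01. The lower members included Pfkfb4 (-0.31) and the collagen hydroxylases Plod1 (-0.31) and Plod2 (-0.29), and the count of lower members was 3 without EGFP replicate 1 and with normexp, median or spike-in scaling. The letters ACGTG, core of the hypoxia response element on either strand, were found in 26 of 38 promoters (68.4%) of both lists, against 28.4% of all 10859. In the other lists the share ran from 0% to 53.8%. Among all 3087 genes with these letters 33.4% were higher and 21.6% lower, against 28.7% and 24.3% of all genes with a promoter.

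Sterol and fatty acid synthesis rose as groups. Of 25 genes of cholesterol synthesis and uptake 23 were higher and none lower, none by 2-fold (median 0.51). Hmgcs1, an early enzyme of the route, was higher by 0.57 and Dhcr7, a late one, by 0.58, and the 2 that did not pass were Tm7sf2 and Ebp (-0.11 and 0.05). Msmo1, a sterol demethylase, gave 28085 and 29168 on the EGFP and 52109 and 48675 on the W20 arrays (1.76-fold, log2 difference 0.82 ± 0.045, adjusted p = 0.000117), and Mvd, which forms isopentenyl diphosphate, 4615 and 4686 on the EGFP and 7642 and 7270 on the W20 arrays (log2 difference 0.68 ± 0.039, adjusted p = 0.000129). Fatty acid synthesis had 14 of 17 members higher and none lower (median 0.38). Acss2, which makes acetyl-CoA from acetate in cytosol and nucleus, gave 314 and 296 on the EGFP and 567 and 536 on the W20 arrays (1.81-fold, log2 difference 0.85 ± 0.044, adjusted p = 9.91e-05), and the desaturase Scd1 was higher by 0.67. Genes of sterol export, targets of the liver X receptors, were split, with 2 higher and 4 lower of 8 (none higher without EGFP replicate 1, 1 higher without EGFP replicate 2 or W20 replicate 2). The cholesterol exporter Abcg1 gave 133 and 128 on the EGFP and 66.8 and 72.0 on the W20 arrays (1.88-fold lower, log2 difference -0.91 ± 0.060, adjusted p = 0.000191), the lipid carrier Apoe 3525 and 3634 on the EGFP and 2158 and 2198 on the W20 arrays (log2 difference -0.72 ± 0.048, adjusted p = 0.000198) and Mylip, which degrades the LDL receptor, fell by 0.65. The exporter Abca1 was higher by 0.31 and Lpcat3 by 0.12, calls that each ended under 5 alternatives (adjusted p = 0.0585 to 0.135 for Abca1 and 0.0521 to 0.426 for Lpcat3).

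Genes of ribosome biogenesis, nucleotide synthesis and translation were higher by small amounts. Ribosomal proteins and respiratory subunits were called higher about as often as all genes but seldom lower. With the main scaling 0 of 77 and 1 of 56 were lower, against 24.3% of all genes. Ribosome biogenesis had 40 of 42 members higher and none lower (median 0.39), led by Noc2l (0.62), Utp14a (0.61) and Rrp12 (0.61), which take part in building ribosomal subunits. Ncl, nucleolin, which organises the nucleolus, gave 77805 and 77337 on the EGFP and 108714 and 102316 on the W20 arrays (log2 difference 0.44 ± 0.042, adjusted p = 0.000608). Of 19 genes of the pentose phosphate route and nucleotide synthesis 14 were higher (median 0.33), among them Prps1 (0.70) and Impdh1 (0.59), which supply purines. Translation factors had 28 of 37 higher (median 0.20; 0.10 with quantile scaling; 18 higher without W20 replicate 1 or with quantile scaling, 7 with spike-in scaling). Proteasome subunits had 18 of 31 higher (median 0.17; 0.09 with quantile scaling; 11 higher without W20 replicate 1, 4 with spike-in scaling). Genes of DNA replication had 27 of 48 higher (median 0.15; 10 with spike-in scaling). Genes of mitosis had 21 higher and 1 lower of 45 (median 0.14; 13 higher without EGFP replicate 2, 3 with spike-in scaling; none lower without any 1 of the 4 arrays). Ribosomal proteins themselves had 25 of 77 higher, a share of 32.5% near the 28.5% of all genes, and their count was 3 without EGFP replicate 1, 12 without EGFP replicate 2, 4 without W20 replicate 1 (median 0.07) and 44 without W20 replicate 2. None was higher with spike-in scaling, and with quantile scaling 2 were higher and 5 lower and the median turned from 0.12 to below 0. Subunits of oxidative phosphorylation had 16 higher and 1 lower of 56, and their share of 28.6% higher is close to that of all genes. Leaving out 1 array gave 6 (without W20 replicate 1) to 28 higher ones (without W20 replicate 2). Spike-in scaling gave 4, and quantile scaling gave 6 higher and 12 lower with a median of -0.01 against 0.10. Mitochondrial ribosomal proteins had 33 higher and 1 lower of 53 (median 0.17; 17 higher without EGFP replicate 2, 21 without W20 replicate 1 and 12 with spike-in scaling; 5 lower with quantile scaling). Enzymes of the TCA cycle had 7 of 19 higher (median 0.09; 3 with spike-in scaling; median 0.05 and 1 lower without W20 replicate 1; 3 lower with quantile scaling).

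**Figure D3:**
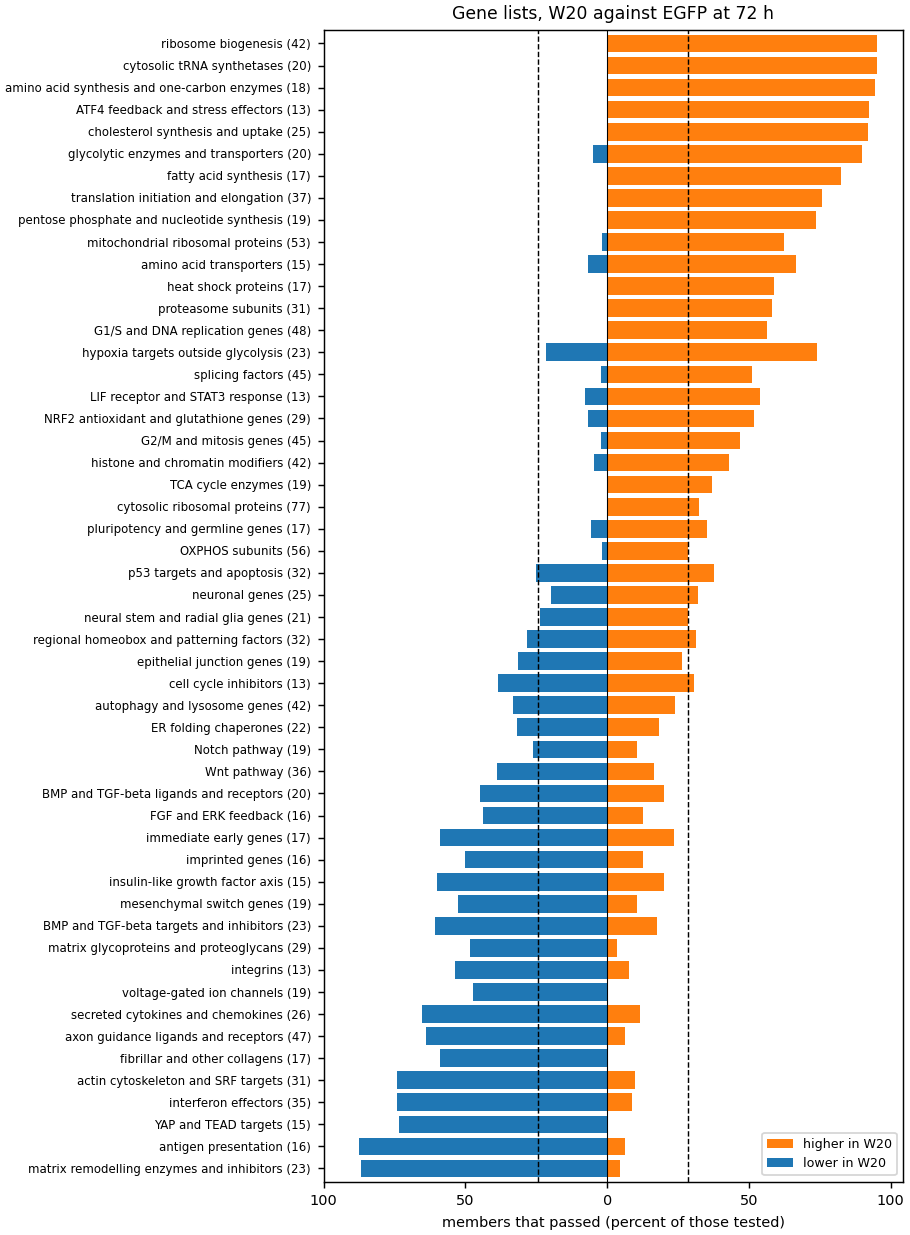
Percent of the tested members of the 52 gene lists with at least 13 of them that were higher (right, orange) or lower (left, blue) in W20 cells at 72 h, with the number tested beside each name. Dashed lines mark the 28.5% higher and 24.3% lower of all 13618 genes, and the lists run from ribosome biogenesis and tRNA synthetases at the top to antigen presentation and matrix remodelling at the bottom.

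Genes of the contractile cytoskeleton were lower in W20 cells. Of 31 actin cytoskeleton genes and SRF targets 23 were lower, 7 of them at least 2-fold, and 3 higher (median -0.34). The CArG box, the site of SRF, was found on either strand in 185 of 10859 promoters (1.7%) and in 11 of 28 (39.3%) of this list, of which 9 were lower, 1 was higher and 1 did not pass. Windows with it in capitals are given for Myl9, Actc1 and Acta1, which were lower, and for Fhl1, which was higher, at chr2:156775273-156775342 (Myl9, plus strand), chr2:114052883-114052952 (Actc1, minus strand), chr8:123894809-123894878 (Acta1, minus strand) and chrX:56779551-56779620 (Fhl1, plus strand).
Myl9: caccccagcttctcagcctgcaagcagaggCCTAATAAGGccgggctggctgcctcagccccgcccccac
Actc1: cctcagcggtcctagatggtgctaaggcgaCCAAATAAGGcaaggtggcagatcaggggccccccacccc
Acta1: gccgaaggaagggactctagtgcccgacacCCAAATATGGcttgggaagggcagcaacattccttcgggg
Fhl1: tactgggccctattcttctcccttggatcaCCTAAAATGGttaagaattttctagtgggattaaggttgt
Myl9, the regulatory light chain of smooth muscle myosin, had the strongest drop of all genes measured well in both groups, from 17770 and 16562 to 2781 and 2732 (6.22-fold, log2 difference -2.64 ± 0.080, adjusted p = 3.08e-05). Cnn1, calponin, which binds actin and slows myosin, went from 6577 and 6307 to 1170 and 1214 (5.40-fold, log2 difference -2.43 ± 0.12, adjusted p = 7.88e-05), and Lmod1, which nucleates actin in smooth muscle, from 685 and 655 to 158 and 147 (4.40-fold, log2 difference -2.14 ± 0.077, adjusted p = 4.04e-05). The cardiac and skeletal actins Actc1 and Acta1 differed by -1.60 and -1.75, transgelin (Tagln) by -1.81. The cytoplasmic actins changed little: Actg1 differed by -0.07 and did not pass, and Actb was higher by 0.18, a call that ended under 9 of 13 alternatives (adjusted p = 0.0512 to 0.195). Fhl1, a muscle LIM protein, was higher, with 3459 and 3313 on the EGFP and 5584 and 5010 on the W20 arrays (log2 difference 0.64 ± 0.060, adjusted p = 0.000548), whereas W20 NPC had less of it than EGFP NPC (-2.20 in NPC). Among all 185 genes with the box 29.7% were higher and 30.8% lower.

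YAP and TEAD targets had 11 of 15 members lower and none higher (median -0.33). Ankrd1, a nuclear ankyrin protein and much used YAP readout, gave 858 and 835 on the EGFP and 193 and 208 on the W20 arrays (4.22-fold lower, log2 difference -2.08 ± 0.058, adjusted p = 2.88e-05). Ccn2, a secreted matrix-associated growth factor, gave 5156 and 4914 on the EGFP and 2475 and 2374 on the W20 arrays (2.08-fold lower, log2 difference -1.05 ± 0.050, adjusted p = 7.74e-05). The receptor kinase Axl differed by -0.63, Amotl2, which holds YAP at junctions, by -0.61, and Ajuba, a partner of the Hippo kinases, by -0.58. Several of these genes answer to SRF too, so the lists are not independent. Targets of the aryl hydrocarbon receptor, a sensor of aromatic ligands, had 4 of 8 members lower and none higher (median -0.35). Cyp1a1, the most inducible of them, gave 157 and 163 on the EGFP arrays and was not well above background in W20 cells, at least 6.69-fold lower (adjusted p = 2.14e-05). Ahrr, the repressor that the receptor induces, differed by -0.85, Cyp1b1 by -0.70 and Aldh3a1 by -0.51. The receptor Ahr and its partner Arnt did not pass (-0.05 and -0.03).

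Genes of the extracellular matrix and of the enzymes that cut it were more often lower than higher. Of 23 matrix remodelling genes 20 were lower, 6 of them at least 2-fold, and 1 higher (median -0.57; -0.38 with normexp). Loxl1, which cross-links elastin, gave 1937 and 1965 on the EGFP and 529.6 and 537 on the W20 arrays (3.66-fold lower, log2 difference -1.87 ± 0.038, adjusted p = 2.14e-05), and Plau, the plasminogen activator urokinase, 568 and 559 on the EGFP and 192 and 208 on the W20 arrays (2.82-fold lower, log2 difference -1.50 ± 0.053, adjusted p = 4.04e-05). Mmp14, a protease anchored in the membrane, fell by 1.23, and the gelatinase Mmp9, not well above background in W20 cells, was at least 1.55-fold lower (adjusted p = 0.00103). Collagens had 10 of 17 members lower and none higher (median -0.34), with Col5a1 at -0.71 and Col8a1 at -0.79. Matrix glycoproteins had 14 lower and 1 higher of 29 (median -0.13). Their median was -0.30 without EGFP replicate 1. The lower count was 9 without EGFP replicate 2, and the higher count was 3 without W20 replicate 1. Without W20 replicate 2 the median was -0.21 and the higher count 2. Mgp, an inhibitor of calcification, gave 203 and 224 on the EGFP and 34.0 and 40.9 on the W20 arrays (5.71-fold lower, log2 difference -2.51 ± 0.14, adjusted p = 0.000118), and Bgn, biglycan, 2586 and 2641 on the EGFP and 1176 and 1206 on the W20 arrays (log2 difference -1.13 ± 0.038, adjusted p = 3.81e-05). The higher member among all arrays was Lama1, the laminin chain of early basement membranes, with 36.6 and 35.5 on the EGFP and 88.7 and 89.9 on the W20 arrays (2.48-fold, log2 difference 1.31 ± 0.076, adjusted p = 0.000133). Integrins had 7 lower and 1 higher of 13, with Itga3, a laminin receptor chain, at -0.85. Genes of the mesenchymal switch had 10 lower and 2 higher of 19 (median -0.40; -0.10 with normexp; 1 higher without EGFP replicate 1 or W20 replicate 2). Thy1, a surface glycoprotein of fibroblasts and neurons, went from 182 and 178 to 51.1 and 50.5 (3.54-fold, log2 difference -1.82 ± 0.033, adjusted p = 2.14e-05).

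BMP and TGF-beta genes had more lower than higher members among ligands and among targets. Of 20 ligands and receptors 9 were lower and 4 higher (median -0.19; -0.02 with normexp and -0.11 without W20 replicate 2; 1 to 2 higher without any 1 of the 4 arrays). Bmp4, a ligand that keeps progenitors from becoming neurons, gave 601 and 596 on the EGFP and 241 and 229.9 on the W20 arrays (2.54-fold lower, log2 difference -1.35 ± 0.052, adjusted p = 4.8e-05). Inhbb, a subunit of activin B, differed by -1.17 and the receptor Tgfbr2 by -0.47. Of 23 targets and inhibitors 14 were lower, 7 of them at least 2-fold, and 4 higher (median -0.49; 2 higher without W20 replicate 1). Id2, which blocks proneural factors, gave 2069 and 1756 on the EGFP and 772 and 725 on the W20 arrays (2.55-fold lower, log2 difference -1.35 ± 0.080, adjusted p = 0.000143), and Id3, of the same family, fell by 1.13. The feedback inhibitor Smad6 gave 326 and 308 on the EGFP and 124 and 117 on the W20 arrays (log2 difference -1.39 ± 0.047, adjusted p = 3.81e-05), and Atoh8, a direct BMP target, fell by 1.22. Grem1, a secreted BMP antagonist, was not well above background in W20 cells, at least 2.15-fold lower (adjusted p = 5.65e-05), and Ltbp2, which binds latent TGF-beta complexes to the matrix, at least 3.39-fold (adjusted p = 0.000271).

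Secreted growth factors and guidance cues were mostly lower. The insulin-like growth factor axis had 9 lower and 3 higher of 15 (median -0.59; 1 higher with spike-in scaling). Igf2, the fetal ligand, gave 833 and 869.7 on the EGFP and 410.5 and 398 on the W20 arrays (2.10-fold lower, log2 difference -1.07 ± 0.060, adjusted p = 0.000121), and its clearing receptor Igf2r fell by 1.05. The binding proteins parted: Igfbp7 gave 5876 and 5337 on the EGFP and 1414 and 1471 on the W20 arrays (3.88-fold lower, log2 difference -1.96 ± 0.052, adjusted p = 2.65e-05), whereas Igfbp2 gave 128 and 123 on the EGFP and 643 and 532 on the W20 arrays (4.67-fold higher, log2 difference 2.23 ± 0.15, adjusted p = 0.00022). Imprinted genes, of which Igf2 is one, had 8 lower and 2 higher of 16 (4 higher with the 72 h arrays alone). Dlk1, an imprinted membrane ligand of progenitors, gave 942 and 1011 on the EGFP and 193 and 179.7 on the W20 arrays (5.24-fold lower, log2 difference -2.39 ± 0.052, adjusted p = 2.14e-05), and the imprinted transporter Slc38a4 fell by 1.35, while Phlda2, a brake on placental growth, was higher by 1.00. Of 26 cytokines, chemokines and secreted factors 17 were lower and 3 higher (median -0.51; -0.24 with normexp; 1 higher with normexp, without EGFP replicate 1 or without W20 replicate 1). Cxcl12, the ligand of CXCR4, gave 3901 and 3812 on the EGFP and 1180 and 1189 on the W20 arrays (3.25-fold lower, log2 difference -1.70 ± 0.033, adjusted p = 2.14e-05), Cxcl5 differed by -1.11 and the membrane-bound Cx3cl1 by -1.07.

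Axon guidance genes had 30 lower and 3 higher of 47 (median -0.33; -0.19 with normexp; 1 higher with spike-in scaling). Sema3f, a repellent semaphorin, gave 654 and 679.6 on the EGFP and 304 and 298 on the W20 arrays (2.21-fold lower, log2 difference -1.15 ± 0.037, adjusted p = 3.81e-05), and Epha4, a receptor of ephrins, 97.7 and 88.6 on the EGFP and 36.7 and 37.6 on the W20 arrays (log2 difference -1.32 ± 0.12, adjusted p = 0.000511), though with all its probes averaged Epha4 did not pass (adjusted p = 0.068). Unc5b, a netrin receptor, differed by -1.20 and the plexin Plxna4 by -1.30. In the Wnt route, 14 genes were lower and 6 higher of 36 (3 higher with spike-in scaling), including the antagonists Dkk3 (-1.32) and Nkd1 (-1.47), both lower, and the nuclear factor Lef1 (0.82), higher. The FGF and ERK feedback genes had 7 lower and 2 higher of 16 (1 higher without EGFP replicate 1, EGFP replicate 2 or W20 replicate 2), with Il17rd, an inhibitor of FGF signalling, at -1.23.

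Interferon and antigen presentation genes were lower in W20 cells. Of 35 interferon effectors 26 were lower and 3 higher (median -0.38; 1 higher without EGFP replicate 1 and none without W20 replicate 2). Iigp1, a GTPase that attacks vacuoles of pathogens, gave 288 and 311 on the EGFP and 111 and 117 on the W20 arrays (2.63-fold lower, log2 difference -1.40 ± 0.10, adjusted p = 0.000244). Ifi44 differed by -0.85, the guanylate-binding protein Gbp2 by -0.74, and Oasl2, an RNA sensor relative, by -0.73. The higher members included Ifit1 and Rsad2, calls that ended under 8 and 3 alternatives (adjusted p = 0.0515 to 0.198 for Ifit1 and 0.0683 to 0.0926 for Rsad2, left-out arrays among them). Of 16 genes of antigen presentation 14 were lower and 1 higher (median -0.38; none higher without EGFP replicate 1 or either W20 array). Psmb9, a subunit of the immunoproteasome, gave 86.0 and 80.3 on the EGFP and 40.4 and 31.9 on the W20 arrays (2.32-fold lower, log2 difference -1.21 ± 0.13, adjusted p = 0.000806), and Tap2, a chain of the peptide transporter, 74.7 and 86.7 on the EGFP and 42.5 and 36.9 on the W20 arrays (log2 difference -1.02 ± 0.093, adjusted p = 0.000509). The proteasome activator Psme1 fell by 0.75. Of the constitutive subunits described above 18 of 31 were higher.

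**Figure D4:**
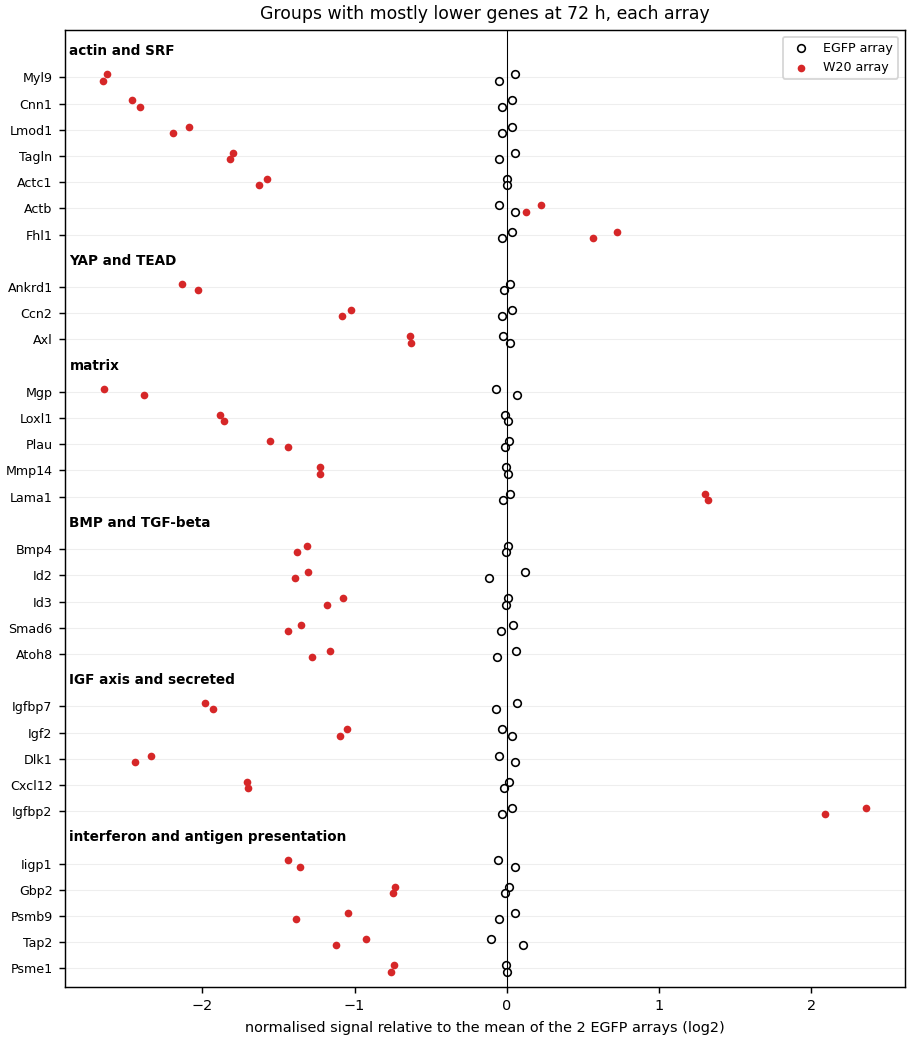
Normalised signal of each array at 72 h relative to the mean of the 2 EGFP arrays (log2, x axis) for genes of 6 groups, with 2 open points for EGFP and 2 filled points for W20 arrays a gene. All W20 points of Myl9, Cnn1, Lmod1 and Ankrd1 lie more than 2 log2 units to the left, and those of Fhl1, Igfbp2 and Lama1 lie to the right.

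Reprogramming factors and pluripotency genes had calls in both directions, 6 of 9 and 7 of 17, against 52.8% of all genes called. Pou5f1, the central reprogramming factor, was well above background on no array. Of 9 reprogramming factors tested 4 were higher and 2 lower, and the count of higher ones was 2 without EGFP replicate 2 or W20 replicate 1. The largest fitted difference was a drop: Esrrb, an orphan receptor of embryonic stem cells, gave 26.0 and 28.1 on the EGFP arrays and was not well above background in W20 cells, at least 1.14-fold lower (adjusted p = 0.00116; adjusted p = 0.0624 with normexp). The other lower member was Klf5, a relative of Klf4, with 1285 and 1259 on the EGFP and 1160 and 1131 on the W20 arrays (log2 difference -0.15 ± 0.039, adjusted p = 0.0214). This call ended under 6 of 13 alternatives, among them every left-out array but W20 replicate 1 (adjusted p = 0.0595 to 0.139). Klf4 gave 3520 and 3565 on the EGFP and 5013 and 5116 on the W20 arrays (log2 difference 0.52 ± 0.035, adjusted p = 0.000204). Mycl gave 81.2 and 76.5 on the EGFP and 111 and 104 on the W20 arrays (log2 difference 0.45 ± 0.11, adjusted p = 0.0148), and its call ended without EGFP replicate 2 or W20 replicate 1 (adjusted p = 0.0711 to 0.073). Myc is counted among the 4 higher ones by its brightest probe. It has called probes of both signs, so no direction is given for it. Sox2 gave 211 and 197 on the EGFP and 219 and 230.1 on the W20 arrays (log2 difference 0.14 ± 0.047, adjusted p = 0.0466), and 9 of 13 alternatives ended this call (adjusted p = 0.056 to 0.439). Of 17 further pluripotency and germline genes 6 were higher and 1 lower, and the count of higher ones was 1 to 2 without any 1 of the 4 arrays. The lower one was Dppa5a, an RNA-binding protein of embryonic stem cells (336 and 307 on the EGFP and 220.3 and 213 on the W20 arrays, log2 difference -0.57 ± 0.052, adjusted p = 0.000531). The response to LIF, which the medium holds, had 7 higher and 1 lower of 13, with the kinase Pim1 at 0.55, and 2 to 4 higher without EGFP replicate 1, EGFP replicate 2 (where none was lower) or W20 replicate 1.

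Neural genes had calls in both directions, at shares near the 28.5% higher and 24.3% lower of all genes. Of 21 neural stem and radial glia genes 6 were higher (28.6%) and 5 lower (23.8%). For the neuronal genes below the shares were 32% and 20%, and for the patterning factors 31.25% and 28.12%. Egfr, the receptor of the EGF in the NPC medium, gave 325 and 324 on the EGFP and 112 and 121 on the W20 arrays (2.78-fold lower, log2 difference -1.48 ± 0.053, adjusted p = 4.04e-05), and Slc1a3, a glutamate transporter of radial glia, 578 and 598 on the EGFP and 265 and 222 on the W20 arrays (2.42-fold lower, log2 difference -1.28 ± 0.10, adjusted p = 0.000356). Hes5, a Notch effector, was not well above background in W20 cells, at least 2.17-fold lower (adjusted p = 0.00439; adjusted p = 0.0615 with normexp). Cd24a, a surface protein of young neurons and epithelia, gave 3061 and 2859 on the EGFP and 6912 and 6429 on the W20 arrays (2.25-fold higher, log2 difference 1.17 ± 0.056, adjusted p = 7.88e-05). Of 25 neuronal genes 8 were higher and 5 lower, with counts of 5 to 6 and 3 to 5 without 1 array: the RNA-binding protein Elavl3 gave 31.4 and 29.0 on the EGFP and 89.4 and 92.5 on the W20 arrays (3.02-fold higher, log2 difference 1.59 ± 0.056, adjusted p = 4.04e-05) and Crmp1, which regulates microtubules in axons, 664 and 612 on the EGFP and 270.2 and 292 on the W20 arrays (2.27-fold lower, log2 difference -1.18 ± 0.065, adjusted p = 0.000114). Tubb3, the neuronal tubulin, was higher by 0.95. Of 32 regional homeobox and patterning factors 10 were higher and 9 lower. The homeobox genes Dlx1 and Dlx2 were among the lower ones, at -1.23 and -1.01, and Nkx6-1 and Irx1 among the higher ones, at 1.14 and 1.01. Hoxb8, not well above background in EGFP cells, was at least 2.63-fold higher with W20 (adjusted p = 0.000465). Hoxb9, which is outside the list, gave 21.1 and 18.3 on the EGFP and 59.1 and 70.5 on the W20 arrays (3.28-fold higher, log2 difference 1.71 ± 0.11, adjusted p = 0.000166).

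Genes of arrest and death had calls in both directions. Cdkn1a, the p21 inhibitor of cyclin-dependent kinases, gave 1966 and 1982 on the EGFP and 4372 and 4224 on the W20 arrays (2.18-fold higher, log2 difference 1.12 ± 0.039, adjusted p = 4.04e-05), while Cdkn2b and Cdkn2a, inhibitors of the same kinase class from the Ink4 locus, differed by -0.52 and -0.40. Of 32 p53 targets and apoptosis genes 12 were higher (37.5%) and 8 lower (25%), against 28.5% and 24.3% of all genes. Pmaip1, the death-promoting protein NOXA, was higher by 0.77. Of 29 NRF2 antioxidant and glutathione genes 15 were higher and 2 lower (6 and 1 with spike-in scaling; 1 lower without EGFP replicate 1; 6 lower with quantile scaling), among them Hmox1, haem oxygenase, at 0.84, and Gsr, which reduces glutathione, at 0.46. Autophagy and lysosome genes had 10 higher (23.8%) and 14 lower (33.3%) of 42, and with spike-in scaling 11 were called, each lower. Map1lc3a, which coats autophagosomes, differed by -0.48 and the lysosomal enzyme Gusb by -0.42.

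Chromatin and immediate early genes moved by small amounts. Of 8 DNA methyltransferases and TET enzymes 5 were higher and none lower (median 0.28; 3 higher without EGFP replicate 1 or W20 replicate 2, and 2 with spike-in scaling). Dnmt3b, which sets new methylation, gave 155 and 151 on the EGFP and 227 and 213 on the W20 arrays (log2 difference 0.52 ± 0.040, adjusted p = 0.000301), and Tdg, which excises oxidised cytosines, was higher by 0.45. Histone modifiers had 18 higher and 2 lower of 42 (3 higher with spike-in scaling; none lower without EGFP replicate 2 or W20 replicate 1), among them the demethylase Kdm2b (0.44) and the chromatin assembly factor Chaf1b (0.38). Tubulins had 9 higher and 1 lower of 12, and the lower one, Tuba8, went from 161 and 162 to 43.3 and 74.6 (2.83-fold, log2 difference -1.50 ± 0.23, adjusted p = 0.00339). Immediate early genes had 10 lower and 4 higher of 17 (7 and 2 without W20 replicate 1; 4 lower with spike-in scaling), with Egr1 at -0.48 and the orphan receptor Nr4a1 at 0.42. Astrocyte genes had 4 higher and 5 lower of 12 (2 higher with the 72 h arrays alone), and Sparcl1, a matrix protein of astrocytes, fell by 1.28. The 4 include Gfap, which was well above background on no array at 72 h, so its direction is not settled.

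Outside the lists, the genes with the strongest differences included Akr1c18, a steroid-metabolising enzyme, with 536 and 525 on the EGFP and 1877 and 1875 on the W20 arrays (3.54-fold higher, log2 difference 1.82 ± 0.058, adjusted p = 3.56e-05), and the unnamed reading frame 1700013H16Rik with 69.2 and 74.1 on the EGFP and 446 and 442 on the W20 arrays (6.20-fold higher). Neither 1600014C23Rik nor Qrfprl was well above background in EGFP cells, and they stood at least 4.34-fold (adjusted p = 0.00203) and at least 3.79-fold higher (adjusted p = 0.00104) with W20. Among the lower ones, Drd4, a dopamine receptor, gave 266 and 242 on the EGFP and 54.4 and 47.4 on the W20 arrays (5.0-fold, log2 difference -2.32 ± 0.090, adjusted p = 4.8e-05), Tnnt3, fast skeletal troponin T, 854 and 818 on the EGFP and 178 and 168 on the W20 arrays (4.83-fold, log2 difference -2.27 ± 0.062, adjusted p = 2.88e-05), and Spns3, a relative of the sphingosine phosphate carriers, 189 and 181 on the EGFP and 40.1 and 39.7 on the W20 arrays (4.63-fold, log2 difference -2.21 ± 0.063, adjusted p = 2.88e-05). Prnd, the prion-like protein doppel, was measured in EGFP cells at 144 and 153 and was not well above background in W20 cells, at least 6.27-fold lower (adjusted p = 0.000218). Pcdh12, a protocadherin of endothelium and trophoblast, was at least 3.58-fold lower (adjusted p = 9.42e-05), and Abi3, an actin regulator, at least 3.51-fold (adjusted p = 8.14e-05).

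The W20 effect at 72 h was then set against the W20 effect in NPC, which lie on another slide, with the difference of both effects tested in the same model. Stage and slide cannot be told apart in that difference, and each effect lies within its own slide. In NPC, 31.8% of genes were higher and 23.7% lower with W20. The effect was higher at 72 h for 1915 genes (14.1%) and lower for 2292 (16.8%). Of the 124 genes at least 2-fold higher at 72 h, 57 were also called higher in NPC, 51 were not called there and 16 were called lower. Of the 330 at least 2-fold lower, 230 were called lower in NPC too, 80 were not called and 20 were called higher.

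The ATF4 route was already higher in NPC and larger at 72 h for its strongest members. In NPC 7 of the 8 transcription factors, 9 of 13 effectors and 17 of 20 tRNA synthetases were higher, with medians of 0.59, 0.56 and 0.34. The effect was larger at 72 h by 1.88 ± 0.070 for Slc7a11 (adjusted p = 0.000166), 1.77 ± 0.14 for Chac1 (adjusted p = 0.000721) and 1.73 ± 0.10 for Trib3 (adjusted p = 0.000367), and none was called for Stc2 (-0.05 ± 0.10, adjusted p = 0.749). Of the 23 hypoxia targets 13 had a higher effect at 72 h and 3 a lower one, among the former Bnip3 (-0.18 in NPC) by 2.06 ± 0.055 (adjusted p = 0.000114) and Ankrd37 (-0.12) by 2.08 ± 0.099 (adjusted p = 0.000246). The 20 glycolytic genes had 11 with a higher effect, such as Slc16a3 (0.01 in NPC), by 1.44 ± 0.046 (adjusted p = 0.000114). Of the 25 cholesterol genes 19 had a higher effect at 72 h and 1 a lower one. Ribosome biogenesis was higher in NPC also (38 of 42, median 0.42), and the difference was called for 2 members in each direction.

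Among the lowered groups, 18 of the 31 actin and SRF genes had a lower effect at 72 h and 1, Fhl1, a higher one. Cnn1 differed by -1.68 ± 0.16 (adjusted p = 0.00137) and Ankrd1, which W20 NPC had at a higher level (0.59), by -2.67 ± 0.082 (adjusted p = 0.000114). Cyp1a1, which was not called in NPC (0.13, adjusted p = 0.159), had a stage difference of -3.02 ± 0.096 (adjusted p = 0.000114), a fitted value that rests on a probe near background in W20 cells. The collagens had 6 members with a higher and 2 with a lower effect of 17, and the matrix glycoproteins 9 and 5 of 29. Mgp, for example, differed by -4.10 in NPC and by -2.51 at 72 h. Of the 35 interferon genes 24 were lower in NPC already, and 10 had a lower and 4 a higher effect at 72 h. The LIF response genes had a higher effect at 72 h in 8 of 13 members and the homeobox factors in 16 of 32.

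**Figure D5:**
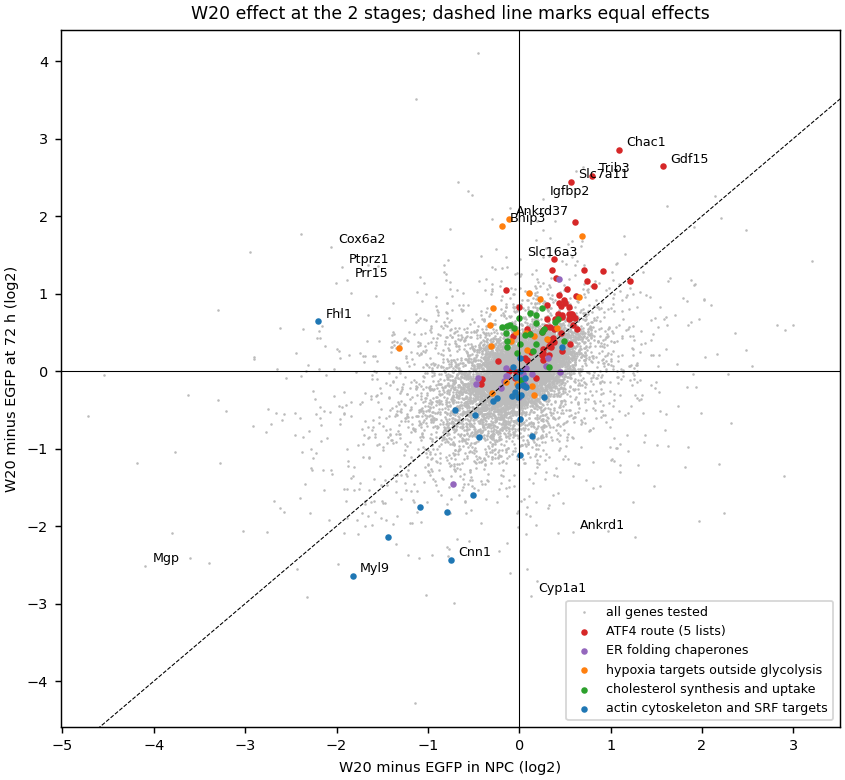
W20 effect at 72 h (y axis) against W20 effect in NPC (x axis), both W20 minus EGFP on the log2 scale, for 13618 genes in grey with genes of 5 groups coloured and the dashed line of equal effects. Most cholesterol and hypoxia genes lie above the line, actin and SRF genes mostly below it, and Cox6a2, Prr15 and Fhl1 lie in the upper left, lower with W20 in NPC and higher at 72 h.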

How the data were processed

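RNA was hybridised to 1-colour Agilent whole mouse genome arrays, 8 in all and 4 at 72 h. Per the file headers, Feature Extraction 10.7.3.1 gave each spot an intensity that was background-subtracted and detrended, with no scaling between arrays; each array has 43379 non-control spots for 41174 probes, 27584 of them with a gene symbol. The deposited series table holds log2 values whose 72 h columns are not these arrays' own values (2 of them equal means of the NPC columns and 2 equal means of both 72 h arrays, within 0.01 log2), so it was not used. Its scale was log2 and its direction that of the intensity; how it was centred is unknown.

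Values were log2 minus each array's 75th percentile. The brightest probe stood for a gene, and 13618 genes with a probe well above background on both arrays of a group were tested. One limma model (3.58.1, R 4.3.3) of 4 group means was fitted, with eBayes and Benjamini-Hochberg adjustment at 0.05. Saturated spots numbered 0. For a gene not well above background on either array of 1 group, "at least" folds set the bright group's mean against the lowest signal well above background. On simulated data of 13613 genes the 72 h test called 17, 38, 45 and 49 of 50 genes changed by 0.25, 0.5, 1 and 2 log2 units, and 9 of 13413 unchanged genes. Few genes were changed there, with independent noise and no effect of slide position, whereas 52.8% of genes were called in the data. These rates therefore need not hold for the real comparison. The alternatives were normexp (offset 50) on the median spot and background intensity, as no mean column was held, quantile, median and spike-in scaling, filters on dim probes, the mean of a gene's probes, the 72 h arrays alone, a replicate block and each 72 h array left out.

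Members and gene lists were chosen with earlier results of these data known. Named genes are, for 72 h, the 12 highest and 12 lowest measured differences, the 6 highest and lowest bounded folds, up to 6 larger and 3 opposite members of a list, all members of short lists and the 6 largest stage differences each way among genes dim in neither 72 h group. Members that did not pass, and Adm2, Calr, Cdh1, Eno1, Krt8, Ncl, Slc2a1, Tgfbr2 and the sterol enzymes Hmgcs1 and Dhcr7, were named outside this rule with values known. A few genes that the rule names are not reported here.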

Additional observations from a re-analysis of the deposited data

Results flagged for a closer look

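The W20 effect differed between the stages, by limma's test of the difference of effects, for 1915 genes with a higher and 2292 with a lower effect at 72 h. The stages lie on different slides, which cannot be told apart from the stage.

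Among genes well above background on at least 1 array of each 72 h group, the largest stage differences upwards by fitted value (72 h effect minus NPC effect, log2) were those of Crym, a thyroid hormone binding protein, at 4.50 ± 0.20, Sostdc1, a BMP and Wnt antagonist, at 4.14 ± 0.25, Cox6a2, a muscle subunit of cytochrome oxidase, at 3.67 ± 0.097, Ptprz1, a phosphatase of neural progenitors, at 3.29 ± 0.52, Brinp3 at 3.09 ± 0.28 and Prr15 at 3.06 ± 0.23. Of these, Cox6a2 was well above background on all 8 arrays, with effects of -2.06 in NPC and 1.61 at 72 h, and the other 5 were well above background on neither W20 NPC array, so that their fitted values are not measured folds. Downwards they were those of Lce1g at -4.07 ± 0.89, Prl2c5 at -3.05 ± 0.13, Lce1i at -2.95 ± 0.70, Lce1a2 at -2.82 ± 0.78, Ankrd1 at -2.67 ± 0.082 and the Ras activator Rasgrp3 at -2.51 ± 0.31, and the 3 Lce genes, of the skin's late cornified envelope, were not well above background in EGFP NPC. Ankrd1, Prl2c5 and Rasgrp3 were measured on all 8 arrays.

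Other named genes were called in opposite directions at the 2 stages. W20 cells had less of them in NPC and more at 72 h for Fhl1 (stage difference 2.84 ± 0.084), Bnip3 (2.06 ± 0.055), Irx1 (1.63 ± 0.075), Acss2 (1.52 ± 0.063), Ifit1 (1.03 ± 0.22), Pim1 (0.91 ± 0.088), Sox2 (0.86 ± 0.066), Hmgcs1 (0.76 ± 0.067), Dhcr7 (0.71 ± 0.053), Dnmt3b (0.66 ± 0.057) and Nr4a1 (0.65 ± 0.052). W20 cells had more in NPC and less at 72 h for Aldh3a1 (-1.42 ± 0.070), Itga3 (-1.37 ± 0.071), the keratins Krt18 (-1.36 ± 0.064) and Krt8 (-1.24 ± 0.056), Abcg1 (-1.16 ± 0.086), Axl (-0.87 ± 0.063), Klf5 (-0.81 ± 0.055), Cdkn2b (-0.76 ± 0.049), Gusb (-0.59 ± 0.059), Pfkfb4 (-0.46 ± 0.062) and Grem1 (-2.08 ± 0.11), which was dim in W20 cells at 72 h. The 72 h calls of Sox2, Ifit1 and Klf5 ended under 9, 8 and 6 of 13 alternatives, so that their direction at 72 h is not settled. Gfap had a called stage difference as well (4.17 ± 0.63 by fitted value), but it was well above background only in EGFP NPC, so that no direction at 72 h is given. Its call at 72 h ended without EGFP replicate 2 and with the 72 h arrays alone (adjusted p = 0.0572 to 0.0898).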

How the results depend on the processing

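Against 3875 higher and 3313 lower genes, the 13 alternatives gave 1671 to 5680 and 2440 to 3651. With normexp, 41 genes were at least 2-fold higher and 88 at least 2-fold lower, against 124 and 330. With spike-in scaling 1671 genes were higher, and 856 and 1009 had a higher or lower effect at 72 h than in NPC, against 1915 and 2292; with median scaling 1154 had a higher one. Without a filter on dim probes 233 genes were at least 2-fold higher and 64.6% of calls were higher, at a median difference of 0.11 over 18842 genes. With only probes well above background on all 4 arrays 195 were at least 2-fold lower. The causes were not tested. Leaving out 1 array at 72 h gave 2773 to 3419 higher and 2651 to 2961 lower genes. Of 205 called genes named here, 181 kept call and direction under every alternative that could be fitted, and none reversed but Myc, at -0.075 with its probes averaged. Those whose loss is not given beside their result are Adm2, Lce1i, Ptprz1 and Sostdc1. With the replicate number as a block (the replicate block) 3845 genes were higher and 3282 lower; deviations of same-numbered samples correlated at -0.09 to 0.15, so the numbers were not taken to pair the samples. A slide block was not run: each slide holds 1 stage, and the 72 h arrays alone, on 1 slide, gave 3275 higher and 2896 lower. Signal over background limits dim genes: 89 of the 124 and 230 of the 330 lie among the dimmest of 3 equal groups of genes.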
